A study of Homo sapiens with 204 samples.

Results

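The 10 transcripts described here are noncoding RNAs that carry small nucleolar RNAs (snoRNAs) in their introns: GAS5, SNHG1, SNHG5, SNHG6, SNHG7, SNHG8, SNHG12, SNHG15, SNHG16 and ZFAS1. They were chosen by name, and each has 1 row among the 41379 genes of the RNA-seq table of reads over exons. All of them were among the 15526 genes that reached 1 CPM (a count scaled to the size of its library) in at least 11 libraries, so none was lost to the filter on low values, and the lowest single count of any of them was 207 reads. None has a row in the Ribo-seq table, which covers coding sequences, so they are described by RNA amount alone.

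The samples are A549 cells, a human lung adenocarcinoma line, transfected for 24 h with 40 nM of an siRNA against a ribosomal protein or of a non-targeting control siRNA. The knockdowns comprise 44 proteins of the large subunit (48 libraries) and 31 of the small subunit (43 libraries), and the control has 11 libraries. All cells, controls included, were harvested after a short treatment with cycloheximide, which halts ribosomes on mRNA, and total RNA was taken from a detergent lysate cleared by centrifugation. All come from 1 cell line, and nothing in the labels says that libraries of a group came from separate cultures. The p-values below therefore rest on library-to-library spread, which may be technical. In comparisons of pooled knockdowns that spread also includes differences between targets. There, libraries of different targets and both libraries of 1 target enter as separate replicates of a group, with no term for the target. In 16 targets (4 large, 12 small) there are 2 libraries whose titles carry replicate numbers. With them stand 6 controls, of which 4 have such titles. The other 2 controls have replicate numbers only in the column names of the table, and their place in this set is an assumption. The other 59 targets (40 large, 19 small) have 1 library each, with 5 controls. These are called the 2-library set and the single-library set. The deposited totals ran from 18796932 to 63569574 counts per library.

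The mRNA that the siRNA targets was below every one of the 11 controls in 91 of 91 knockdown libraries (in CPM, RPS4Y read as RPS4Y1). A549 and lung epithelial genes were abundant in every group, for example KRT18, with a median of 1107 CPM in large-subunit knockdowns, 1346 in small-subunit knockdowns and 1088 in controls. PTPRC, a marker of blood cells, had a median of 0 in all 3 groups. Of the other listed markers of blood, fibroblast and endothelial cells, CD68, of macrophages, had medians of 35.6 CPM in large-subunit knockdowns, 24.6 in small-subunit knockdowns and 25.9 in controls, and COL1A1, a collagen of fibroblasts, 16.3, 23 and 19.7 CPM in the same order. EPCAM, another epithelial marker, was close to 1 CPM, with medians of 0.904, 1.25 and 1.01 CPM in the same order. In bulk libraries fewer cells of a type and less RNA per cell cannot be told apart.

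The snoRNAs of these genes are trimmed from spliced introns. Box C/D snoRNAs guide methylation of ribosomal RNA and box H/ACA snoRNAs guide its pseudouridylation, so their hosts supply parts of the machinery that makes ribosomes. The spliced exons that remain code for no conserved protein, yet they enter ribosomes on short reading frames. Several, GAS5 above all, are cleared by nonsense-mediated decay, which acts during translation and which cycloheximide blocks. Transcription of GAS5 and of several SNHG genes starts in a pyrimidine tract of the kind known as a terminal oligopyrimidine (TOP) motif, which they share with the mRNAs of ribosomal proteins and translation elongation factors and which makes translation depend on mTOR signalling.

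RefSeq places 37 snoRNA genes within the 10 hosts. GAS5 (chr1:173863901-173869045, GRCh38.p14) holds 11, mostly box C/D. SNHG1 (chr11:62851978-62855885) holds 9, SNHG12 (chr1:28578538-28582983) holds 4, and ZFAS1 (chr20:49278178-49289260) and SNHG16 (chr17:76557764-76565348) hold 3 each. SNHG5 (chr6:85677007-85678733) and SNHG7 (chr9:136724594-136728184) hold 2 each. SNHG8 (chr4:118278762-118279823), SNHG15 (chr7:44983023-44986696) and SNHG6 hold 1 each. GAS5, SNHG6, SNHG7 and SNHG12 overlap a gene other than a snoRNA (GAS5-AS1 and ZBTB37; MCMDC2; DIPK1B; TRNAU1AP). The strand setting of the authors' counting is not given in the sources used here, so reads of overlapping genes may be mixed in these rows.

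The start of the transcripts is shown for the 8 members with a RefSeq start window printed here, because the TOP class is defined by its first bases. Each line gives 25 bases before and 50 bases from the annotated start (GRCh38.p14, sense strand), and the capitals mark the longest unbroken run of C and T. Where 2 runs were equally long, in SNHG1 and SNHG8, the one nearer the start is marked.
GAS5, chr1:173868996-173869070, minus strand: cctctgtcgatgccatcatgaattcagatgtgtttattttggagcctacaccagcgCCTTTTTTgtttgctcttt
SNHG1, chr11:62855836-62855910, minus strand: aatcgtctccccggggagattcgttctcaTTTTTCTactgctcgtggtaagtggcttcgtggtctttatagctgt
SNHG5, chr6:85678684-85678758, minus strand: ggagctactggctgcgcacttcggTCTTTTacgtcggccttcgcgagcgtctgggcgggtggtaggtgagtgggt
SNHG7, chr9:136728135-136728209, minus strand: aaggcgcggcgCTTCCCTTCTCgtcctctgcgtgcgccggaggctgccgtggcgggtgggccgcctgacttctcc
SNHG8, chr4:118278737-118278811, plus strand: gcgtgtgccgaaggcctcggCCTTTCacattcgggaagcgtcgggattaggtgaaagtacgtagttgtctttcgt
SNHG12, chr1:28581824-28581898, minus strand: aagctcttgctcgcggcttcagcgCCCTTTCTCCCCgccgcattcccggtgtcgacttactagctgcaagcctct
SNHG16, chr17:76557739-76557813, plus strand: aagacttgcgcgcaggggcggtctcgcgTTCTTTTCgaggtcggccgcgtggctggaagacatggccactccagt
ZFAS1, chr20:49278617-49278691, plus strand: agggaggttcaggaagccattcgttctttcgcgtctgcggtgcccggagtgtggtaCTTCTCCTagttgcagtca
The longest run had 12 bases in SNHG12 and 11 in SNHG7, 8 in GAS5, SNHG16 and ZFAS1, 7 in SNHG1, and 6 in SNHG5 and SNHG8. Runs at least this long stood in the same window of 6.65% of all 35116 RefSeq promoters for the SNHG12 length, in 9.40% for SNHG7, in 27.7% for GAS5, SNHG16 and ZFAS1, in 39.7% for SNHG1 and in 56.3% for SNHG5 and SNHG8. Only the sense strand was searched, and in SNHG12 and ZFAS1 the start used for the window lies inside the span of the gene given above. Such runs are common in this window, and their presence describes the letters and says nothing of use as a start site. In SNHG5 and SNHG12 the capitals begin 1 base before the annotated start, in SNHG16 and SNHG1 they begin 3 and 4 bases after it, in SNHG8 and SNHG7 5 and 14 bases before it, and in GAS5 and ZFAS1 31 bases after it. The equally long run of SNHG1 begins 20 bases before the start and that of SNHG8 42 bases after it. Shorter runs are not marked, and in ZFAS1 one of them, ttctttc, spans the annotated start.

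With knockdown of large-subunit proteins 4 of the 10 host transcripts were called lower than control and 1 higher, and their median change equalled that over all genes. With knockdown of small-subunit proteins 9 were called lower. SNHG5 differed most between the subunits: it was 0.96 higher on the log2 scale in large- than in small-subunit knockdowns. SNHG16, SNHG8, GAS5, SNHG12 and ZFAS1 followed with differences of 0.79, 0.54, 0.47, 0.47 and 0.44, and SNHG15 with 0.21. SNHG1, SNHG6 and SNHG7 did not pass the test of the difference.

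These calls come from edgeR's quasi-likelihood test on the counts with Benjamini-Hochberg adjustment over all 15526 genes, scaling by trimmed mean of M-values (TMM), a threshold of 0.05 and the library set as a term. With large-subunit knockdown 4 members were called lower and 1 higher, where 20.0% of all genes tested were called lower and 15.5% higher. The median of the 10 log2 fold changes was -0.02, the same as over all genes (-0.02). With small-subunit knockdown 9 members were called lower, against 15.9% of all genes, and 0 higher, against 13%. Their median was -0.37, against -0.03 over all genes. In the direct comparison 7 members were called higher with large- than with small-subunit knockdown and 0 lower, where 15.2% of genes were called higher and 16.4% lower. The 91 knockdown libraries as 1 group had 4 members called lower than control (SNHG1, SNHG7, SNHG12 and SNHG15) and 0 higher, where 17.2% of genes were called lower and 13.4% higher. With library totals in place of TMM scaling the calls over all genes were 2497 higher and 1726 lower with small-subunit knockdown (2015 and 2473 with TMM), and 1586 higher and 3860 lower for large against small (2364 and 2548 with TMM), while no member with a call changed direction. Within the library sets, large-subunit knockdown gave 3 members higher and 0 lower in the 2-library set, and 0 higher and 3 lower in the single-library set. With small-subunit knockdown 4 were called lower in the 2-library set and 7 in the single-library set. The comparison of large with small gave 7 and 6 called higher in these sets.

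**Figure D1:**
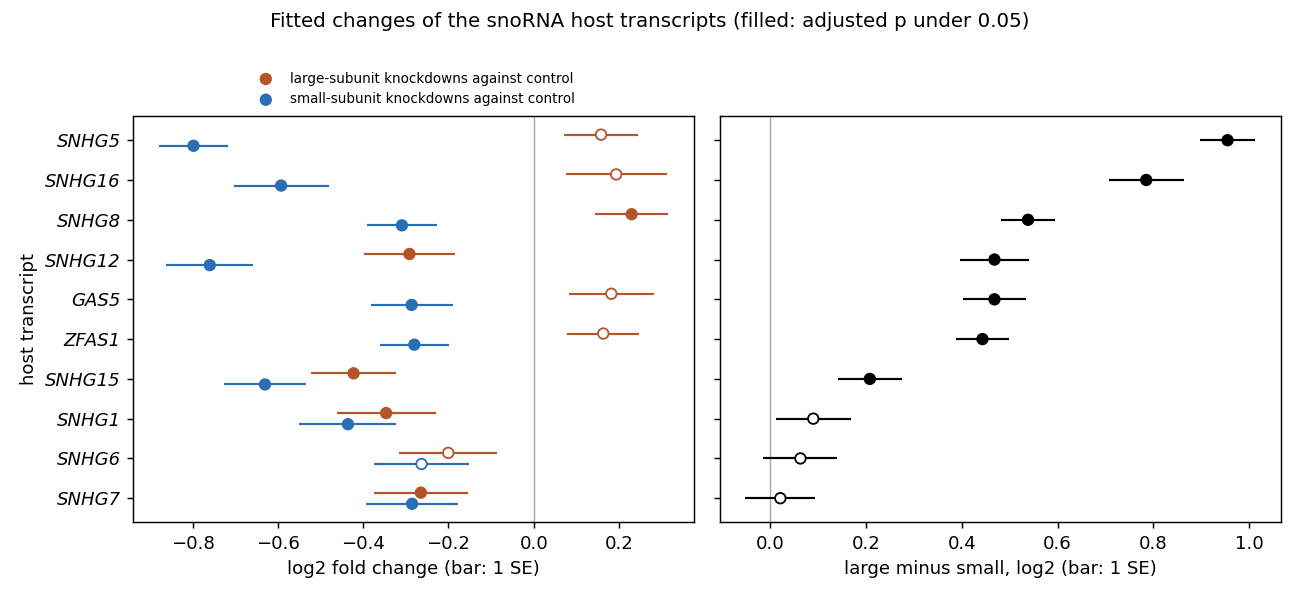
Left, log2 fold change of each host transcript in large-subunit and in small-subunit knockdowns against control. Right, the difference between the subunits. Points are estimates of edgeR's quasi-likelihood fit, bars are 1 SE, and filled points have an adjusted p under 0.05; SNHG5 lies at the top with 0.96 and SNHG7 at the bottom with 0.02.

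The host transcripts SNHG5, SNHG16, SNHG8, GAS5 and ZFAS1 had positive fitted values with large-subunit knockdown, of which that of SNHG8 was called, and fell with small-subunit knockdown with both sets together. SNHG5 carries the box C/D snoRNAs SNORD50A and SNORD50B. Its levels, like all levels below, are TMM-scaled CPM, and they are compared between libraries and not between genes. SNHG5 in the 2-library set ran from 95.2 to 139 CPM (median 125) with large-subunit knockdown, from 37.6 to 67.3 CPM (median 52.4) with small-subunit knockdown and from 69.5 to 106 CPM (median 86.1) in controls. SNHG5 in the single-library set ran from 95.4 to 157 CPM (median 127) with large-subunit knockdown, from 53.2 to 134 CPM (median 61.5) with small-subunit knockdown and from 119 to 134 CPM (median 126) in controls. In the 2-library set all but 1 large-subunit library lay above the controls, and every small-subunit library lay below all controls and all large-subunit libraries. In the single-library set the large-subunit libraries spread around the controls, while the small-subunit libraries lay below them, except for RPS4Y at 134 and RPS27L at 121 CPM. The fold change was 0.16 ± 0.09 (SE; adjusted p = 0.153) on the log2 scale with large-subunit knockdown, -0.80 ± 0.08 (SE; adjusted p = 8.72e-14) with small-subunit knockdown, and 0.96 ± 0.06 (SE; adjusted p = 1.86e-27) between them. Within the sets the difference between subunits was 1.2 (adjusted p = 1.70e-13) in the 2-library set and 0.85 (adjusted p = 1.57e-14) in the single-library set. The large-subunit value was 0.46 (adjusted p = 0.00627) in the 2-library set and 0.02 (adjusted p = 0.947) in the single-library set, and the difference between the sets was not tested.

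SNHG16, host of the box C/D snoRNAs SNORD1A, SNORD1B and SNORD1C, followed the same order. SNHG16 in the 2-library set ran from 301 to 607 CPM (median 507) with large-subunit knockdown, from 136 to 343 CPM (median 266) with small-subunit knockdown and from 334 to 444 CPM (median 359) in controls. SNHG16 in the single-library set ran from 225 to 790.4 CPM (median 499) with large-subunit knockdown, from 138 to 507 CPM (median 288) with small-subunit knockdown and from 424 to 512 CPM (median 464) in controls. Large-subunit libraries lay on both sides of the controls, and most small-subunit libraries lay below the controls of their set. SNHG16 changed by 0.19 ± 0.12 (SE; adjusted p = 0.202) with large-subunit knockdown and by -0.59 ± 0.11 (SE; adjusted p = 1.76e-05) with small-subunit knockdown, and the subunits differed by 0.79 ± 0.08 (SE; adjusted p = 2.72e-14). Its spread was wide within each subunit: the log2 ratio to control per target ran from -1.03 for RPL3 to 0.77 for RPL8 among large-subunit targets, and from -1.74 for RPS25 to 0.13 for RPS4Y among small-subunit targets.

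GAS5, named for its accumulation in growth-arrested cells, is a well studied host cleared by nonsense-mediated decay. GAS5 in the 2-library set ran from 92.9 to 142 CPM (median 115) with large-subunit knockdown, from 46.4 to 96.4 CPM (median 72.4) with small-subunit knockdown and from 57.5 to 103 CPM (median 84.4) in controls. GAS5 in the single-library set ran from 78.8 to 197 CPM (median 107) with large-subunit knockdown, from 62.5 to 126 CPM (median 88.0) with small-subunit knockdown and from 91.6 to 162 CPM (median 102.4) in controls. The groups overlapped the controls in both sets, and in the 2-library set every small-subunit library lay below the large-subunit median. GAS5 was 0.47 ± 0.07 (SE; adjusted p = 1.29e-08) higher with large- than with small-subunit knockdown, which held in the 2-library set at 0.69 (adjusted p = 3.94e-05) and in the single-library set at 0.38 (adjusted p = 0.000177). Against control it changed by 0.18 ± 0.10 (SE; adjusted p = 0.151) with large-subunit knockdown and by -0.29 ± 0.10 (SE; adjusted p = 0.0182) with small-subunit knockdown. Within the sets the large-subunit value was 0.51 (adjusted p = 0.0191) in the 2-library set and 0.01 (adjusted p = 0.984) in the single-library set, and the small-subunit value was -0.19 (adjusted p = 0.343) and -0.37 (adjusted p = 0.0580) in the same order, so the small-subunit call held in neither set alone. Without control 7, whose GAS5 level was the highest of the 5 in its set, the large-subunit value was 0.27 (adjusted p = 0.0320) and the small-subunit value -0.20 (adjusted p = 0.113).

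ZFAS1, antisense to the promoter region of ZNFX1 and host of SNORD12, SNORD12B and SNORD12C, had the same calls as GAS5. ZFAS1 in the 2-library set ran from 118 to 182 CPM (median 138) with large-subunit knockdown, from 79.6 to 145 CPM (median 92.5) with small-subunit knockdown and from 94.1 to 136 CPM (median 123) in controls. ZFAS1 in the single-library set ran from 83.6 to 178 CPM (median 122) with large-subunit knockdown, from 66.9 to 137 CPM (median 97.8) with small-subunit knockdown and from 93.1 to 155 CPM (median 117) in controls. All 3 groups overlapped in both sets, with the large-subunit libraries reaching highest. The subunits differed by 0.44 ± 0.06 (SE; adjusted p = 3.62e-10). ZFAS1 changed by 0.16 ± 0.08 (SE; adjusted p = 0.124) with large-subunit knockdown and by -0.28 ± 0.08 (SE; adjusted p = 0.00554) with small-subunit knockdown. Without control 7 the large-subunit value was 0.22 (adjusted p = 0.0398). The small-subunit value was -0.21 (adjusted p = 0.200) in the 2-library set and -0.34 (adjusted p = 0.0467) in the single-library set.

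SNHG8 carries SNORA24, a box H/ACA snoRNA. SNHG8 in the 2-library set ran from 28.1 to 47.9 CPM (median 37.1) with large-subunit knockdown, from 17.1 to 29.4 CPM (median 23.7) with small-subunit knockdown and from 21.3 to 32.2 CPM (median 25.8) in controls. SNHG8 in the single-library set ran from 23.4 to 50.5 CPM (median 36.2) with large-subunit knockdown, from 19.4 to 34.2 CPM (median 23.7) with small-subunit knockdown and from 30.2 to 43.2 CPM (median 32) in controls. The single-library small-subunit libraries lay below every control of their set, RPS4Y apart. In the 2-library set only the range from 28.1 to 29.4 CPM was shared by large- and small-subunit libraries. SNHG8 was the one member called higher with large-subunit knockdown, at 0.23 ± 0.09 (SE; adjusted p = 0.0296), and it changed by -0.31 ± 0.08 (SE; adjusted p = 0.00262) with small-subunit knockdown. The subunits differed by 0.54 ± 0.06 (SE; adjusted p = 3.25e-13). The large-subunit call was lost without control 20_1 at 0.19 (adjusted p = 0.0810), without control 21_1 at 0.21 (adjusted p = 0.0541) and without control 21_2 at 0.21 (adjusted p = 0.0552). It rested on the 2-library set, where the value was 0.51 (adjusted p = 0.00534), against 0.05 (adjusted p = 0.796) in the single-library set. The small-subunit value was -0.16 (adjusted p = 0.310) in the 2-library set and -0.45 (adjusted p = 0.0103) in the single-library set.

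**Figure D2:**
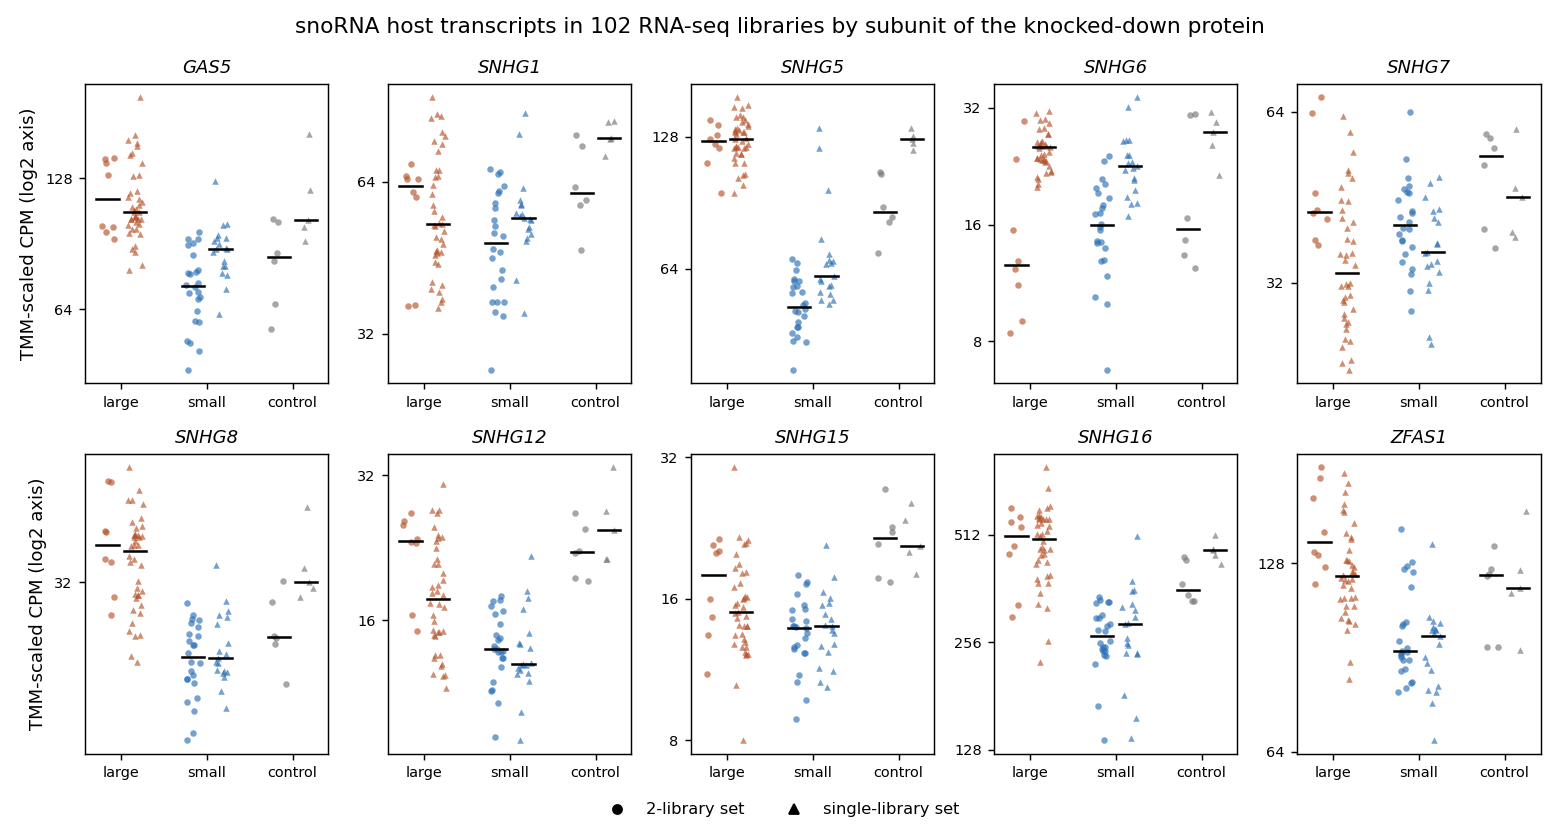
TMM-scaled CPM of each host transcript (log2 axis) in every RNA-seq library, for large-subunit knockdowns, small-subunit knockdowns and controls. Circles are the 2-library set and triangles the single-library set, and black lines are medians; for SNHG5 the small-subunit medians are 52.4 and 61.5 CPM, below the control medians of 86.1 and 126 CPM.

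SNHG12, SNHG15, SNHG1 and SNHG7 were called lower with knockdown of either subunit with both library sets together. None of their large-subunit calls held within the 2-library set. SNHG12 holds 3 box H/ACA snoRNAs and the box C/D snoRNA SNORD99. SNHG12 in the 2-library set ran from 15.2 to 26.7 CPM (median 23.4) with large-subunit knockdown, from 9.18 to 18 CPM (median 14) with small-subunit knockdown and from 19.3 to 26.8 CPM (median 22.2) in controls. SNHG12 in the single-library set ran from 11.6 to 30.6 CPM (median 17.7) with large-subunit knockdown, from 9.04 to 21.8 CPM (median 13) with small-subunit knockdown and from 21.5 to 33.2 CPM (median 24.6) in controls. Small-subunit libraries of the 2-library set lay below every control of that set. In the single-library set all but the highest small-subunit library, RPS4Y at 21.8 CPM, lay below the controls, and the large-subunit libraries overlapped both. SNHG12 changed by -0.29 ± 0.11 (SE; adjusted p = 0.0240) with large-subunit knockdown and by -0.76 ± 0.10 (SE; adjusted p = 4.47e-09) with small-subunit knockdown, and the difference between them was 0.47 ± 0.07 (SE; adjusted p = 1.61e-07). The large-subunit call was lost without control 5 at -0.27 (adjusted p = 0.0550) and without control 7 at -0.22 (adjusted p = 0.112). It came from the single-library set at -0.46 (adjusted p = 0.0260), while the 8 large-subunit libraries of the 2-library set gave -0.01 (adjusted p = 0.985).

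SNHG15, host of SNORA9, was lower in almost all knockdowns. SNHG15 in the 2-library set ran from 11 to 21.4 CPM (median 18) with large-subunit knockdown, from 8.89 to 17.9 CPM (median 13.9) with small-subunit knockdown and from 17.3 to 27.4 CPM (median 21.5) in controls. SNHG15 in the single-library set ran from 8.01 to 30.4 CPM (median 15) with large-subunit knockdown, from 10.4 to 20.8 CPM (median 14) with small-subunit knockdown and from 18.1 to 25.6 CPM (median 20.7) in controls. Large-subunit libraries overlapped both other groups, and most small-subunit libraries lay below the controls of their set. Its log2 ratio to control was negative in 42 of 44 large-subunit targets and in 31 of 31 small-subunit targets. The fitted change was -0.42 ± 0.10 (SE; adjusted p = 0.000389) with large-subunit knockdown and -0.63 ± 0.10 (SE; adjusted p = 1.71e-07) with small-subunit knockdown. The large-subunit value was -0.32 (adjusted p = 0.131) in the 2-library set and -0.45 (adjusted p = 0.0158) in the single-library set. The difference of 0.21 ± 0.07 (SE; adjusted p = 0.0118) was 0.16 (adjusted p = 0.0527) when the run of columns was a term and 0.15 (adjusted p = 0.178) in the single-library set, so its call did not hold there. The columns of the deposited table form 3 consecutive runs, each with controls of its own.

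SNHG1 carries box C/D snoRNAs, among them SNORD22, SNORD25 and SNORD26. SNHG1 in the 2-library set ran from 36.3 to 69.4 CPM (median 62.9) with large-subunit knockdown, from 27.1 to 68.0 CPM (median 48.4) with small-subunit knockdown and from 46.8 to 79.3 CPM (median 60.7) in controls. SNHG1 in the single-library set ran from 36 to 94.2 CPM (median 52.7) with large-subunit knockdown, from 35.1 to 87.9 CPM (median 54.3) with small-subunit knockdown and from 72.2 to 84.5 CPM (median 78.0) in controls. The groups overlapped in the 2-library set, and in the single-library set most knockdown libraries of both subunits lay below the lowest control. It changed by -0.35 ± 0.12 (SE; adjusted p = 0.0138) with large-subunit knockdown and by -0.44 ± 0.11 (SE; adjusted p = 0.00204) with small-subunit knockdown, and the difference between subunits was 0.09 ± 0.08 (SE; adjusted p = 0.403). In the 2-library set SNHG1 had -0.15 (adjusted p = 0.601) with large- and -0.37 (adjusted p = 0.0870) with small-subunit knockdown, and in the single-library set -0.45 (adjusted p = 0.0292) and -0.50 (adjusted p = 0.0410). SNHG7 is the host of SNORA17A and SNORA17B. SNHG7 in the 2-library set ran from 37.4 to 67.8 CPM (median 42.7) with large-subunit knockdown, from 28.5 to 63.8 CPM (median 40.4) with small-subunit knockdown and from 36.9 to 58.5 CPM (median 53.4) in controls. SNHG7 in the single-library set ran from 22.5 to 62.8 CPM (median 33.2) with large-subunit knockdown, from 25 to 49.0 CPM (median 36.2) with small-subunit knockdown and from 38.6 to 59.6 CPM (median 45.3) in controls. All groups overlapped in both sets. SNHG7 changed by -0.26 ± 0.11 (SE; adjusted p = 0.05) with large-subunit knockdown and by -0.29 ± 0.11 (SE; adjusted p = 0.0368) with small-subunit knockdown, with a difference of 0.02 ± 0.07 (SE; adjusted p = 0.858). Both calls against control lay near the threshold: the large-subunit call was lost without any 1 of controls 11_1, 11_2, 20_1, 20_2, 3, 5 and 7, with adjusted p from 0.0611 to 0.157. The small-subunit call was lost without any 1 of controls 11_1, 11_2, 20_2, 3, 5 and 7, with adjusted p from 0.0521 to 0.111. Neither call held within a set: the values were -0.07 (adjusted p = 0.784) with large- and -0.27 (adjusted p = 0.161) with small-subunit knockdown in the 2-library set, and -0.34 (adjusted p = 0.109) and -0.29 (adjusted p = 0.273) in the single-library set.

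SNHG6, host of SNORD87, passed the threshold in no comparison over pooled knockdowns with both sets, all 11 controls and the term for the set. SNHG6 in the 2-library set ran from 8.43 to 29.6 CPM (median 12.6) with large-subunit knockdown, from 6.76 to 24.1 CPM (median 16.0) with small-subunit knockdown and from 12.4 to 30.9 CPM (median 15.6) in controls. SNHG6 in the single-library set ran from 20.0 to 31.4 CPM (median 25.3) with large-subunit knockdown, from 16.9 to 34.1 CPM (median 22.7) with small-subunit knockdown and from 21.4 to 31.2 CPM (median 27.8) in controls. Its values were -0.20 (adjusted p = 0.171) with large-subunit knockdown, -0.26 (adjusted p = 0.0653) with small-subunit knockdown and 0.06 (adjusted p = 0.571) between them. The small-subunit value lay near the threshold: it passed without any 1 of controls 11_2, 20_1, 20_2 and 3 and without the RPS4Y and RPS27L libraries, with values from -0.31 to -0.29 and adjusted p from 0.0340 to 0.0457. Without control 20_2 the value over all knockdowns passed too, at -0.27 (adjusted p = 0.0476), and without the term for the set the difference between subunits did, at 0.29 (adjusted p = 0.00545). SNHG6 was the member whose controls differed most by run of columns, at 12.4 to 16.6 CPM in the 4 controls of the first run, 21.4 to 31.2 CPM in the 5 of the second and 30.7 to 30.9 CPM in the 2 of the third. Those of SNHG5 differed likewise (69.5 to 88.4, 119 to 134 and 105 to 106 CPM), and those of SNHG16 too (334 to 373, 424 to 512 and 436 to 444 CPM). The part of the run in these results was tested by using it as a term. It gave a difference between the subunits of 0.94 (adjusted p = 5.15e-26) for SNHG5, 0.77 (adjusted p = 2.34e-13) for SNHG16 and 0.09 (adjusted p = 0.368) for SNHG6. Against control SNHG6 then had -0.05 (adjusted p = 0.716) with large- and -0.14 (adjusted p = 0.309) with small-subunit knockdown.

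Single targets were tested where 2 libraries exist, against the 6 controls of that set. Among 40 pairs of a member and 1 of the 4 large-subunit targets, 13 were called higher and 6 lower, where 11.7% of all gene-target pairs were called higher and 13.9% lower. Among the 120 pairs with the 12 small-subunit targets, 0 were called higher, against 10.5% of all pairs, and 65 lower, against 12.1%. SNHG5 was called lower in 12 of 12 small-subunit targets, with log2 fold changes from -1.14 to -0.46, SNHG12 in 11, SNHG15 in 10 and SNHG16 in 9. SNHG1 was called lower in 6, ZFAS1 in 5, SNHG8 in 4, GAS5 and SNHG7 in 3 each, and SNHG6 in 2. These pairs share the controls, and the members of 1 library are not independent of each other. Without replicate 1 or without replicate 2, which leaves each target with 1 library and takes the spread from the 6 controls, none of these pairs was called.

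RPS15 knockdown gave the most calls, with 9 of 10 members lower, and RPS15A knockdown gave 8 lower. In RPS15 knockdown SNHG1 changed by -0.99 ± 0.16 (SE; adjusted p = 3.87e-05), SNHG12 by -0.91 ± 0.14 (SE; adjusted p = 4.26e-05) and SNHG6 by -1.17 ± 0.29 (SE; adjusted p = 0.00391). Against the controls of its own run of columns SNHG6 changed by -0.69 ± 0.18 (SE; adjusted p = 0.00646) there. RPS12 gave the fewest of the small subunit, with 2 lower. Among large-subunit targets RPL24 and RPL15 each gave 5 called higher and 1 lower, RPL21 gave 3 higher and 4 lower, and RPL29 gave none. Against the controls of the same run of columns RPL29 had GAS5 higher by 0.42 (adjusted p = 0.0162), SNHG5 higher by 0.35 (adjusted p = 0.0130) and SNHG7 lower, at -0.34 (adjusted p = 0.0406). With those controls RPL15 gained calls for SNHG6 at 0.91 (adjusted p = 0.000112) and SNHG7 at -0.47 (adjusted p = 0.00338), and RPL21 for GAS5 at 0.45 (adjusted p = 0.00508) and SNHG7 at -0.43 (adjusted p = 0.00763). RPL24 lost its 1 lower call there, that of SNHG6. SNHG6 in RPL24 had -0.75 (adjusted p = 0.0499) against all 6 controls and -0.28 (adjusted p = 0.213) against those of the run. In RPL24 knockdown SNHG8 had 47.7 and 47.9 CPM, against 21.3 to 32.2 CPM in the controls, a change of 0.85 ± 0.10 (SE; adjusted p = 1.34e-06). GAS5 had 142 and 139 CPM there, a change of 0.76 ± 0.14 (SE; adjusted p = 0.000223). Both libraries lay above all 6 controls in these 2 genes. RPL21 knockdown split the members: SNHG5 rose by 0.52 ± 0.11 (SE; adjusted p = 0.000773), SNHG8 by 0.43 and SNHG16 by 0.33, while SNHG6 changed by -1.14 ± 0.29 (SE; adjusted p = 0.00330; -0.65 against the controls of the same run), SNHG15 by -0.77, SNHG1 by -0.76 and SNHG12 by -0.46. The 2 libraries of a target differed by a median of 0.0678 (SNHG16) to 0.191 (SNHG6) on the log2 scale, and the widest gaps were 0.589 for SNHG1 in RPS7 and 0.589 for SNHG6 in RPS15.

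Over all 75 targets the ratio of each member to the mean of the controls of its set is a description for the 59 targets with 1 library. Counting a target as low or high when all its libraries lay beyond every control of the set, 167 of 440 pairs of a member and a large-subunit target were low and 62 high, where 26.4% of all gene-target pairs were low and 25.4% high. Of 310 pairs with small-subunit targets 205 were low and 4 high, where 20.9% of all pairs were low and 20.3% high. SNHG12 was low in 30 and SNHG5 in 29 of 31 small-subunit targets, and SNHG15 and SNHG16 in 28 each. With large-subunit targets SNHG1 and SNHG15 were low in 32 of 44 each, SNHG12 in 31 and SNHG7 in 27, whereas SNHG16 was high in 22 and SNHG5 in 14. Control 7 was the highest of the 5 controls of the single-library set in 9 of the 10 members, and without it the pairs that were high with large-subunit targets numbered 122. With all 11 controls in place of those of the set, 106 large-subunit pairs were low.

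The targets did not separate cleanly by subunit. By the mean log2 ratio over the 10 members, the 12 lowest targets were all of the small subunit, from RPS18 at -0.94 through RPS19 at -0.75 and RPS15 at -0.73 to RPS3 at -0.58. RPL38 at -0.57, RPL30 at -0.56 and RPL3 at -0.51 were the lowest of the large subunit. All but 1 of the 15 highest were large-subunit targets, led by RPLP2 at 0.38, RPL24 at 0.34 and RPL15 at 0.26. With RPLP2, a protein of the ribosomal stalk, all 10 ratios were positive and 8 members lay above all controls of the set. The other stalk proteins RPLP0 and RPLP1 had means of 0.19 and 0.13. RPS4Y was the only small-subunit target with a positive mean, at 0.10, and RPS27L stood at -0.24. They are paralogues of RPS4X and RPS27. RPS4X knockdown had a mean of -0.62 and RPS27 knockdown one of -0.38. In the single-library set 6 large- and 9 small-subunit libraries stand in the third run of columns, whose 2 controls belong to the other set. Their ratios are to the 5 controls of the second run, so this order mixes differences between runs with those between targets. Among them are RPSA, RPS4X, RPS2, RPS29, RPS13 and RPS6 of the 12 lowest targets, and RPL30, RPL3 and RPS4Y. Without the RPS4Y and RPS27L libraries, an alternative chosen after seeing the data, SNHG5 changed by 0.19 (adjusted p = 0.0237) with large-subunit knockdown and by -0.86 (adjusted p = 2.02e-20) with small-subunit knockdown.

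**Figure D3:**
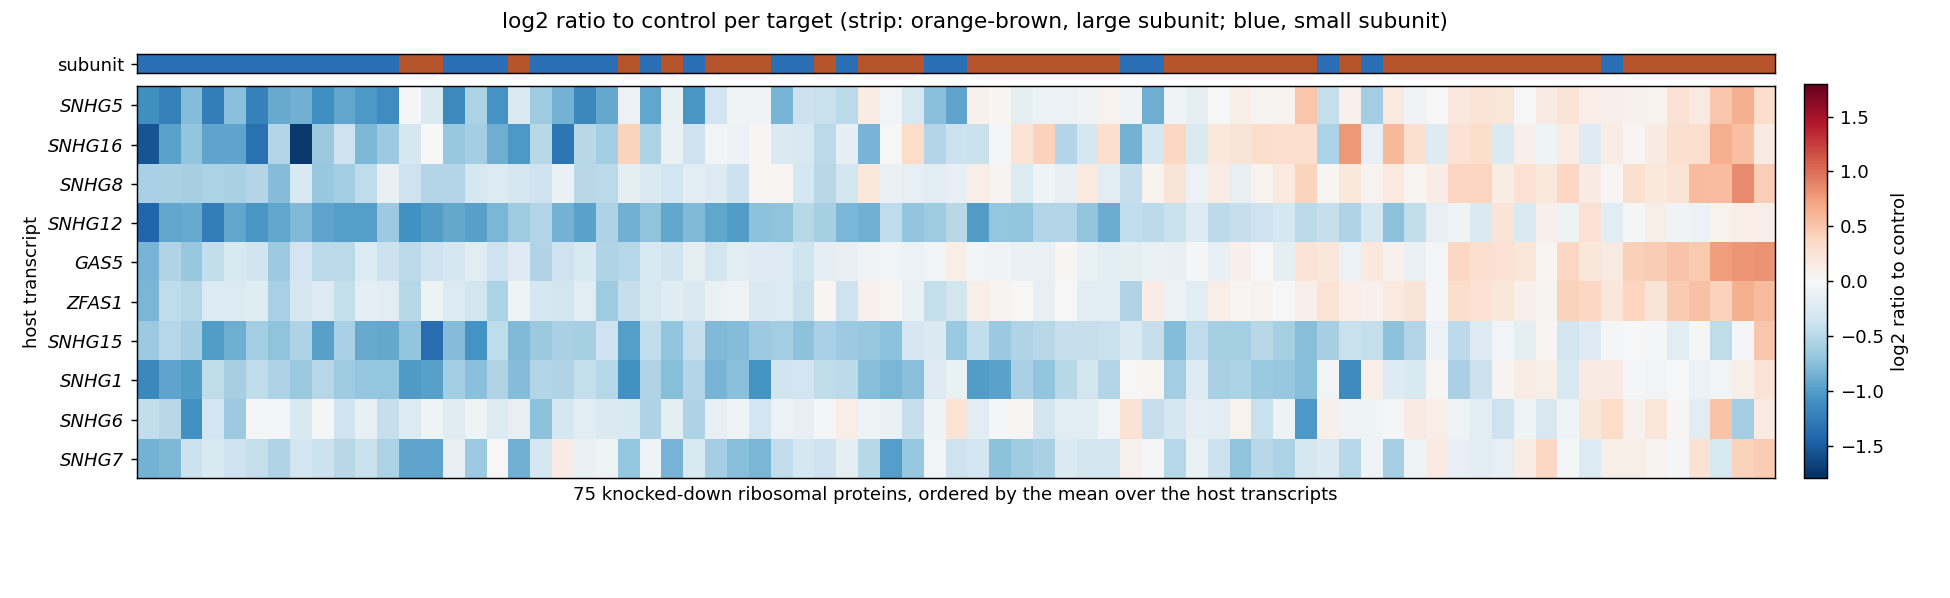
log2 ratio to control of each host transcript (rows) for the 75 targets (columns), ordered by the mean over the 10 transcripts from RPS18 (-0.94) to RPLP2 (0.38). Blue cells are below control and red cells above; the strip on top shows large-subunit targets in orange-brown and small-subunit targets in blue, with the first 12 columns all blue.

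The targets at each end differed between members, by the same ratios to the controls of the library set, which mix run and target as above. The 3 highest log2 ratios of GAS5 were in RPLP2 (0.80), RPL24 (0.79) and RPL15 (0.75), and the 3 lowest in RPS18 (-0.84), RPS15 (-0.69) and RPS29 (-0.66). ZFAS1 was highest in RPL24 (0.63), RPLP2 (0.57) and RPLP0 (0.52), and lowest in RPS18 (-0.83), RPS14 (-0.63) and RPS29 (-0.58). SNHG8 was highest in RPL24 (0.84), RPLP0 (0.57) and RPL15 (0.56), and lowest in RPS29 (-0.79), RPS13 (-0.69) and RPS23 (-0.61). GAS5, ZFAS1 and SNHG8 shared RPL24 among their highest and RPS29 among their lowest targets. SNHG5 was highest in RPL24 (0.64), RPL21 (0.50) and RPL15 (0.49), and lowest in RPSA (-1.24), RPS2 (-1.21) and RPS19 (-1.21). SNHG16 was highest in RPL8 (0.77), RPL15 (0.65) and RPL23 (0.58), and lowest in RPS25 (-1.74), RPS18 (-1.56) and RPS2 (-1.34). RPL8 was also among the lowest targets of SNHG1, with -1.13, so 2 members lay at opposite ends in the same library. SNHG1 was highest in RPLP2 (0.25), RPS4Y (0.15) and RPL22 (0.14), and lowest in RPS18 (-1.16), RPL8 (-1.13) and RPL19 (-1.09). SNHG7 was highest in RPLP2 (0.46), RPL24 (0.42) and RPL11 (0.37), and lowest in RPL36 (-1.0), RPL38 (-0.96) and RPL30 (-0.94). SNHG12 was highest in RPL22 (0.28), RPL29 (0.23) and RPL24 (0.12), and lowest in RPS18 (-1.43), RPSA (-1.25) and RPL38 (-1.09). The 3 lowest targets of SNHG7 were all of the large subunit, and RPL38 was at the low end of both SNHG7 and SNHG12. SNHG15 was highest in RPLP2 (0.50), RPL11 (0.02) and RPLP1 (-0.01), with RPL30 (-1.37) and RPSA (-1.01) among its lowest. SNHG6 was highest in RPL15 (0.51), RPS4Y (0.34) and RPS27L (0.26), and lowest in RPS15 (-1.08), RPL21 (-1.03) and RPS15A (-0.73).

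Across the 75 targets, with ratios centred within each library set, the 45 pairs of members had a median Pearson's r of 0.58, from 0.07 to 0.89. These values describe points that share controls, library and depth. GAS5 and ZFAS1 were closest at 0.89, with SNHG8 at 0.85 to GAS5 and 0.82 to ZFAS1. SNHG5 went with SNHG8 at 0.80 and with SNHG16 at 0.74. A second cluster held SNHG1 and SNHG7 at 0.78, SNHG7 and SNHG15 at 0.74, and SNHG1 and SNHG15 at 0.69. SNHG12 stood between them, with 0.82 to GAS5, 0.73 to SNHG15 and 0.72 to SNHG1. SNHG7 and SNHG16 were the least related pair, at 0.07, and SNHG6 had a median of 0.24 with the other members. Within the 44 large-subunit targets alone the median r was 0.63, and within the 31 small-subunit targets 0.46.

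**Figure D4:**
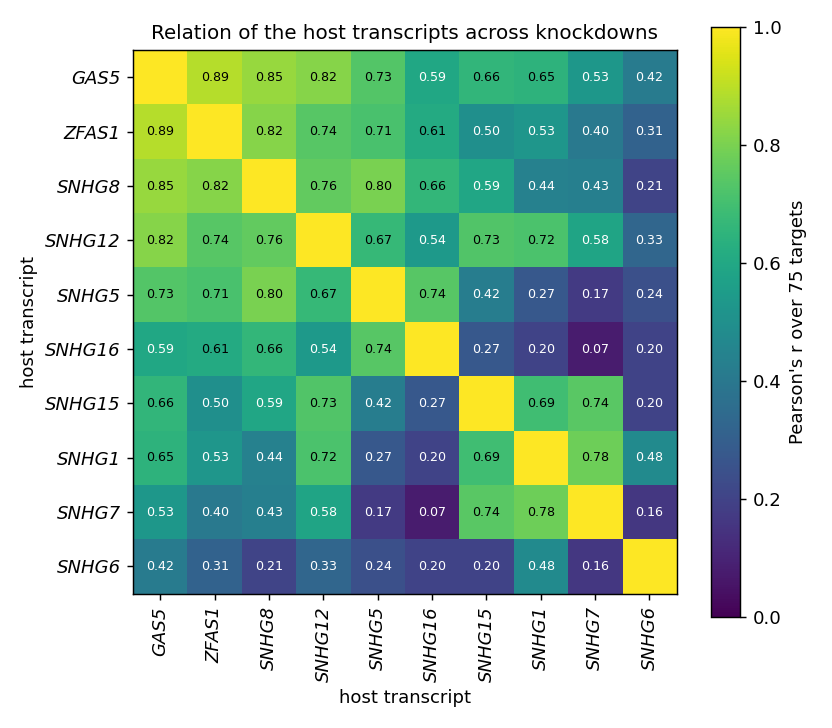
Pearson's r between the log2 ratios to control of each pair of host transcripts over 75 targets, centred within each library set. Brighter cells are higher; GAS5 and ZFAS1 reach 0.89 and SNHG7 and SNHG16 lie at 0.07.

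Among 10107 other genes with a mean of at least 10 CPM, the 8 most alike to the mean ratio of the members over the 75 targets were led by 2 noncoding snoRNA hosts, SNHG3 (r = 0.82) and EPB41L4A-AS1 (0.82). SNHG4, a further host, had 0.80. The identifiers ENSG00000277967 and ENSG00000274760, with no symbol in the tables used, had 0.81 and 0.81. C19orf48P had 0.74. CSKMT, which encodes a mitochondrial citrate synthase methyltransferase, had 0.78, and SLC3A2, the heavy chain of an amino acid transporter and a neighbour of SNHG1 on chromosome 11, had 0.73. The median over all genes compared was 0.03, and 1.48% of them exceeded 0.5.

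The counts of the gene lists below stand beside the shares of all genes: 20.0% were called lower and 15.5% higher with large-subunit knockdown, 15.9% and 13% with small-subunit knockdown, and 16.4% and 15.2% in the comparison of large with small. Where a list's share is close to these, its count is no result about the list. All calls against control among other noncoding hosts were lower. Of 18 listed, 17 were tested: 5 were called lower and 0 higher with large-subunit knockdown (median log2 fold change -0.13), 9 lower and 0 higher with small-subunit knockdown (median -0.46), and 6 were higher and 0 lower with large- than with small-subunit knockdown. SNHG17, SNHG10 and SNHG22 had the lowest values over all knockdowns, at -0.55 (adjusted p = 8.34e-06), -0.51 (adjusted p = 1.80e-05) and -0.49 (adjusted p = 0.00243), and none of the 3 passed the test between the subunits. SNHG19 and EPB41L4A-AS1, named after their values were seen, were higher with large- than with small-subunit knockdown by 0.54 (adjusted p = 2.74e-10) and 0.50 (adjusted p = 1.12e-12).

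Of 25 protein-coding snoRNA hosts tested, 6 were called lower and 6 higher with large-subunit knockdown (median log2 fold change -0.02), 11 lower and 1 higher with small-subunit knockdown (median -0.20), and 10 were higher and 1 lower in the comparison of large with small. The large-subunit counts were close to the shares of all genes. EIF4A1, an RNA helicase of translation initiation, rose over all knockdowns by 0.30 (adjusted p = 0.000981). HSPA8, a chaperone, changed by -0.39 (adjusted p = 0.000179), SNRPB, a core protein of splicing particles, by -0.38 (adjusted p = 0.000291), and TAF1D, a subunit of the RNA polymerase I selectivity factor, by -0.40 (adjusted p = 0.0198). The hosts EEF2, TPT1, RACK1 and EEF1B2, which encode proteins of the translation machinery or the TOP class, named after their values were seen, had these log2 fold changes with large- and small-subunit knockdown: the elongation factor EEF2 (0.60 and -0.23), TPT1 (0.15 and -0.31), RACK1 (0.22 and -0.19) and EEF1B2 (0.11 and -0.24).

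The snoRNAs themselves are poorly covered by these libraries. Of 35 listed in introns of the members, 23 have a row and 16 were tested, at median control levels from 0.651 to 2.89 CPM, and reads in these rows may come from host introns. With large-subunit knockdown 12 of 16 were called lower and with small-subunit knockdown 14, none higher, where 20.0% and 15.9% of all genes were called lower, and 3 were higher with large- than with small-subunit knockdown. The median log2 fold changes were -0.60 and -0.76 in the same order. With large-subunit knockdown all 16 fitted values were lower than that of the host, and with small-subunit knockdown 13. SNORD12, in ZFAS1, changed by -0.72 ± 0.21 (SE; adjusted p = 0.00360) with large-subunit knockdown, where ZFAS1 itself had 0.16. SNORA9, in SNHG15, changed by -0.98 ± 0.18 (SE; adjusted p = 7.59e-06) with large- and -0.93 ± 0.17 (SE; adjusted p = 1.67e-05) with small-subunit knockdown. SNORD25, in SNHG1, had -0.94 ± 0.19 (SE; adjusted p = 4.74e-05) and -0.97 ± 0.19 (SE; adjusted p = 2.80e-05), and SNORD87, in SNHG6, had -0.98 ± 0.30 (SE; adjusted p = 0.00772) and -0.87 ± 0.30 (SE; adjusted p = 0.0203). SNORA24, in SNHG8, was the only row called with neither, at 0.03 ± 0.17 (SE; adjusted p = 0.908) and -0.34 ± 0.17 (SE; adjusted p = 0.120). Also not called with large-subunit knockdown were SNORA44 (-0.30, adjusted p = 0.288), SNORD99 (-0.46, adjusted p = 0.126) and SNORD1C (-0.39, adjusted p = 0.0869). With small-subunit knockdown SNORD26 was not called (-0.49, adjusted p = 0.0643). No snoRNA row of GAS5 or SNHG5 passed the filter. The difference between a snoRNA row and its host was not tested.

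**Figure D5:**
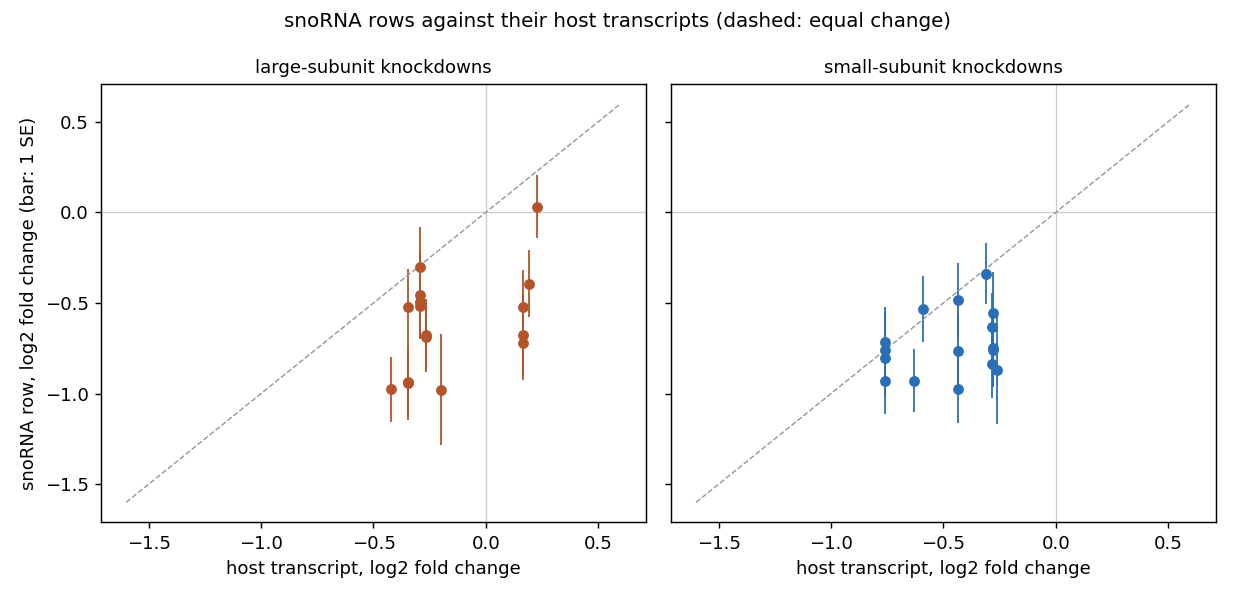
log2 fold change of 16 snoRNA rows (vertical, bars are 1 SE) against that of the host transcript (horizontal), with large-subunit knockdown on the left and small-subunit knockdown on the right. Points under the dashed line have a lower fitted value than their host, which holds for all 16 on the left and 13 on the right.

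Against control, the counts for proteins that bind snoRNAs and for factors of nonsense-mediated decay were mostly near the shares of all genes. In the comparison of large with small, 4 of 17 snoRNP proteins were called higher and 0 lower, and 5 of 16 decay factors higher and 2 lower. Of all genes 15.2% were called higher there and 16.4% lower. Of 17 snoRNP proteins, 4 were called lower and 2 higher with large-subunit knockdown (median log2 fold change -0.05), and 4 lower and 1 higher with small-subunit knockdown (median 0.05). NOLC1, a nucleolar chaperone of snoRNPs, rose by 1.36 (adjusted p = 5.06e-16) over all knockdowns. The box C/D proteins NOP56, SNU13 and FBL, the last the methyltransferase fibrillarin, changed by -0.35 (adjusted p = 0.000299), -0.35 (adjusted p = 1.44e-05) and -0.20 (adjusted p = 0.0141). Of 16 decay factors, 1 was called lower and 3 higher with large-subunit knockdown (median log2 fold change 0.07), and 2 lower and 1 higher with small-subunit knockdown (median -0.01). SMG5 changed by -0.06 (adjusted p = 0.665) with large- and by -0.45 (adjusted p = 3.46e-05) with small-subunit knockdown, a difference of 0.39 (adjusted p = 1.80e-07). CASC3, of the exon junction complex, rose by 0.31 (adjusted p = 0.00185) over all knockdowns and RBM8A by 0.18 (adjusted p = 0.0179), and EIF4A3, of the same complex, changed by -0.24 (adjusted p = 0.00574).

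Readouts of p53, which is wild type in A549, moved with the knockdowns beside the hosts. Of 4 listed, 4 were called higher with large- and 3 with small-subunit knockdown, and all 4 were higher with large than with small. CDKN1A, a cell cycle inhibitor, rose by 1.94 (adjusted p = 5.30e-06) with large- and 1.21 (adjusted p = 0.00267) with small-subunit knockdown, MDM2 by 1.75 and 1.00, and BTG2 by 2.84 and 2.2. Of 10 A549 and lung epithelial markers 4 were called higher with large- and 4 with small-subunit knockdown, none lower, where 15.5% and 13% of all genes were called higher. ALDH3A1 rose by 0.72 (adjusted p = 0.000410) over all knockdowns, KRT19 by 0.69 and MUC1 by 0.46. Of 10 markers of blood, fibroblast and endothelial cells 3 were tested, and 1 was called higher with large- and none with small-subunit knockdown. The part of these genes in the changes of the hosts was not tested.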

How the data were processed

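The authors deposited whole-number read counts per Ensembl gene over exons, in 1 RNA-seq table, per the file headers; the counts are neither normalized nor pooled. The tools named, per the submitters' processing notes, are STAR 2.6.1 for GRCh38, cutadapt 1.8.1 and bcl2fastq 2.20.0.422. The sources used here do not give the counting program, its handling of strand and of reads with several matches, or the annotation release. Of 41379 identifiers 40811 had a symbol, and 0 columns of values stayed unmatched. Control names 21_1 and 21_2 come from the table's header, since no title matches them.

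The filter kept genes that reached 1 CPM in 11 or more libraries (15526 genes, 99.8% of counts). Tests used glmQLFit and glmQLFTest of edgeR 4.0.16 in R 4.3.3 on TMM-scaled counts, with the library set as covariate; SE are the log2 fold change over the root of the test statistic. Groups were all knockdowns, large- and small-subunit knockdowns, and, in turn, the 16 targets of the 2-library set, each set against that set's 6 controls. Ratios per target are log2 of TMM-scaled CPM plus 0.5, minus the mean of the controls of the set. CPM are shares of a library, so all changes are relative to the other RNA. Alternatives were DESeq2 1.42.0, other scalings and filters, other control sets, left-out libraries and a replicate block. Tests were checked on simulated data. Where 2 identifiers share a snoRNA symbol, the one with more counts was used. Over 16 pairs of libraries of 1 target, chi-square per degree of freedom was at least 4.29, so none was merged.

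The members, gene lists and tests were chosen with earlier results of these data known. Named genes are the 10 members; up to 3 called genes with the largest positive and negative changes over all knockdowns per list; the 8 genes most alike; and the 3 highest and lowest targets per member, of which some are not reported here. Start windows are from RefSeq (GRCh38.p14); SNHG6 and SNHG15 are named only.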

Additional observations from a re-analysis of the deposited data

Results flagged for a closer look

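One control stood apart from its set in 1 of 20 member and control-set combinations, about the number chance gives, since 1 group in 20 passes this test. SNHG8 had 43.2 CPM in control 7, beyond the other 4 controls of the single-library set.

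The change with large-subunit knockdown differed from that with small-subunit knockdown in 7 members by edgeR's quasi-likelihood test of the difference itself. The log2 differences were 0.47 for GAS5, 0.96 for SNHG5, 0.54 for SNHG8, 0.47 for SNHG12, 0.21 for SNHG15, 0.79 for SNHG16 and 0.44 for ZFAS1.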

How the results depend on the processing

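Of 840 member values under the alternatives, 754 kept direction and side of the threshold, 59 lost and 13 gained a call, and 14 changed sign, none of them called in either fit. The sign changes were GAS5 over all knockdowns (-0.0477) without the set term (0.0117), with the run term (0.0095), in the 2-library set (0.0203) and when 1 control was left out (-0.0935 to 0.0258, positive without control 7); SNHG8 over all knockdowns (-0.0337) without the filter (0.0091), without the set term (0.0069), in the 2-library set (0.0349) and when 1 control was left out (-0.0655 to 0.0166, positive without control 7). The others were SNHG6 with large-subunit knockdown (-0.20) without the set term (0.0229), the subunit difference of SNHG7 (0.0206) with library totals (-0.0292), without the set term (-0.0642), with the run term (-0.0046) and in the single-library set (-0.0562), and that of SNHG6 (0.0626) in the 2-library set (-0.0791). The small-subunit calls of SNHG5, SNHG12, SNHG15 and SNHG16, and all the calls between subunits except that of SNHG15, held throughout. Counts of calls over all genes were smaller within a library set, where fewer libraries enter. For the 2-library set they were 994 higher and 886 lower over all knockdowns (2073 and 2671 with both sets), 1243 and 1399 for large-subunit knockdown (2406 and 3099 with both), 1072 and 953 for small-subunit knockdown (2015 and 2473 with both), and 1085 and 1146 for large against small (2364 and 2548 with both). The members called there were 2 lower over all knockdowns, 3 higher and 0 lower with large- and 4 lower with small-subunit knockdown. For the single-library set the genes called were 1189 higher and 900 lower over all knockdowns, 1598 lower with large-subunit knockdown, and 1046 higher and 669 lower with small-subunit knockdown, with 0 members higher in the large-subunit comparison. With library totals in place of TMM 0 members were higher with large-subunit knockdown and 3860 genes were lower in large against small. With no filter on low counts 1 member was lower with large-subunit knockdown. Without the term for the library set 2 members were higher, as without the RPS4Y and RPS27L libraries, an alternative chosen after seeing the data. With controls of the same run of columns 4 small-subunit pairs were called higher, and 18 small-subunit ratios were above all controls. With all 11 controls 106 large-subunit ratios were below all of them. The cause was not tested.

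Leaving out 1 control at a time gave 1861 to 2164 genes higher and 2372 to 2602 lower over all knockdowns, with 0 members higher and 3 to 4 lower. Large-subunit knockdown gave 2215 to 2599 genes higher and 2820 to 3016 lower, with 0 to 3 members higher and 2 to 4 lower. Small-subunit knockdown gave 1745 to 2144 and 2155 to 2423, with 0 members higher and 7 to 10 lower. The comparison of large with small gave 2337 to 2594 and 2525 to 2591, with 7 members higher and 0 lower. Pairs of a member and a 2-library target ranged from 0 to 14 higher and 0 to 7 lower for the large subunit, and 0 higher and 0 to 73 lower for the small subunit. For these pairs replicate 1 or 2 was also left out, where no pair was called and the lone library of a target is assumed to vary like the controls. Pairs beyond all controls ranged from 62 to 122 above and 167 to 195 below for the large subunit, and from 4 to 10 above and 205 to 219 below for the small subunit.

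Over 171 pairs of groups the median correlation of same-numbered deviations was -0.04, from -0.83 to 0.75, and 40.9% of pairs exceeded 0.1. With 2 libraries per group the sign of a deviation follows the numbering, so the median does not decide whether libraries were paired. With a replicate block 3 members were lower with large-subunit knockdown (4 without it, SNHG7 at -0.26 (adjusted p = 0.0516)), the pairs called lower were 5 for the large and 64 for the small subunit (6 and 65 without it), and no other member count changed. The snoRNA rows lay nearer the filter of 1 CPM than the members, whose lowest level in any library was 6.76 CPM. The median levels of the snoRNA rows in controls were 0.651 to 2.89 CPM, and SNORD87 had a median of 0.322 CPM with small-subunit knockdown.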
